A study of Mus musculus with 21 samples.

Results

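The genes described here are 10 that handle iron inside the cell: Tfrc, Tfr2, Steap3 and Slc11a2 for uptake, Slc25a37 for entry into mitochondria, Fth1 and Ftl1 for storage, Ncoa4 for release from storage, and Ireb2 and Aco1 for sensing. They were chosen by name for what they do, out of 54532 genes in the count table, with earlier results of these data known. All 10 passed the filter on low counts, as did 16262 genes in all. RNA was sequenced from bone marrow cells of C57BL/6 mice enriched with beads for c-kit (CD117, the receptor for stem cell factor on blood progenitors) after red cells had been lysed. The groups were Asxl1-/-Jak2V617F (n = 3 libraries), Jak2V617F (n = 3), Asxl1-/- (n = 2) and WT (n = 3). Asxl1 encodes a chromatin regulator, and V617F is an activating change in the kinase Jak2, which signals from the erythropoietin receptor. The labels name no other allele, and neither the age of the mice nor what drives the Asxl1 deletion or the Jak2 allele is given in the sources used here. Whether replicates are different animals is not stated either, so the p-values rest on a spread between samples that may be technical in part.

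As background, most cells take up iron bound to transferrin. The transferrin receptor (Tfrc) carries it into endosomes, the ferrireductase Steap3 reduces it, the transporter Slc11a2 (DMT1) moves it to the cytosol, and mitoferrin 1 (Slc25a37) brings it into mitochondria, where haem and iron-sulfur clusters are made. Iron not in use is kept in ferritin, a shell of heavy (Fth1) and light (Ftl1) chains, and Ncoa4 delivers ferritin to lysosomes so that its iron is freed. The sensors Aco1 and Ireb2 (IRP1 and IRP2) bind iron-responsive elements when iron is low, which stabilises Tfrc mRNA and blocks translation of ferritin mRNA, so ferritin mRNA and protein need not move together. Erythroid precursors are the heaviest users of transferrin iron in the marrow.

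Total counts were 16198011 to 19196283 per library, and levels are given as CPM (counts scaled to library size, with TMM factors). The level of Asxl1 was 96.4 ± 3.61 CPM in Asxl1-/-Jak2V617F, 157 ± 34.4 in Jak2V617F, 93 ± 5.66 in Asxl1-/- and 162 ± 1.41 in WT (SD). Kit passed the test in no comparison. Of the other progenitor markers, Cd34, Gata2 and Myb fell in Jak2V617F against WT, and Ly6a did not pass. Cd34 was at 141 ± 25.8 CPM in Asxl1-/-Jak2V617F, 18 ± 3.8 in Jak2V617F, 202 ± 3.72 in Asxl1-/- and 135 ± 12.3 in WT. The Jak2V617F libraries stood apart in their cell type markers. The 20 erythroid markers summed to 2336 to 4095 CPM in Asxl1-/-Jak2V617F, 8094 to 10280 in Jak2V617F, 3344 to 3878 in Asxl1-/- and 2198 to 3971 in WT. The 14 granulocyte markers summed to 41330 to 51164 CPM in Asxl1-/-Jak2V617F, 2591 to 5715 in Jak2V617F, 67750 to 69051 in Asxl1-/- and 45446 to 61443 in WT. None of these markers is one of the 10 iron genes. In bulk RNA, fewer cells of a type and less RNA per cell cannot be told apart. Y-linked transcripts were read in 3 libraries, namely Jak2V617F 2 and both of Asxl1-/-. No WT library had such reads, so that a sex term is separated from Asxl1 genotype in the fit only through Jak2V617F 2.

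In Asxl1-/-Jak2V617F against Jak2V617F, 7 of the 10 genes changed: Tfrc, Tfr2, Steap3, Slc11a2, Fth1 and Aco1 fell, and Ncoa4 rose. In Jak2V617F against WT, Tfrc, Tfr2, Steap3, Slc11a2, Fth1 and Aco1 rose and Ncoa4 fell. Both comparisons use the Jak2V617F libraries and are not independent of each other. Of all genes tested, 44.3% were called in Asxl1-/-Jak2V617F against Jak2V617F, with 24.5% higher and 19.8% lower, and 53.5% in Jak2V617F against WT, with 24.4% higher and 29.2% lower. The 7 calls of 10 are to be read against these shares. The median log2 change of the 10 genes was -0.79, with -0.01 over all genes tested, in Asxl1-/-Jak2V617F against Jak2V617F, and 1.09, with -0.05 over all genes tested, in Jak2V617F against WT. In the same comparisons 18 of 20 erythroid markers fell in Asxl1-/-Jak2V617F against Jak2V617F and 18 rose in Jak2V617F against WT, while all 14 granulocyte markers rose in Asxl1-/-Jak2V617F against Jak2V617F and fell in Jak2V617F against WT. No erythroid or granulocyte marker was at 0 in any library. The plot of levels in each library shows the 10 genes.

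**Figure D1:**
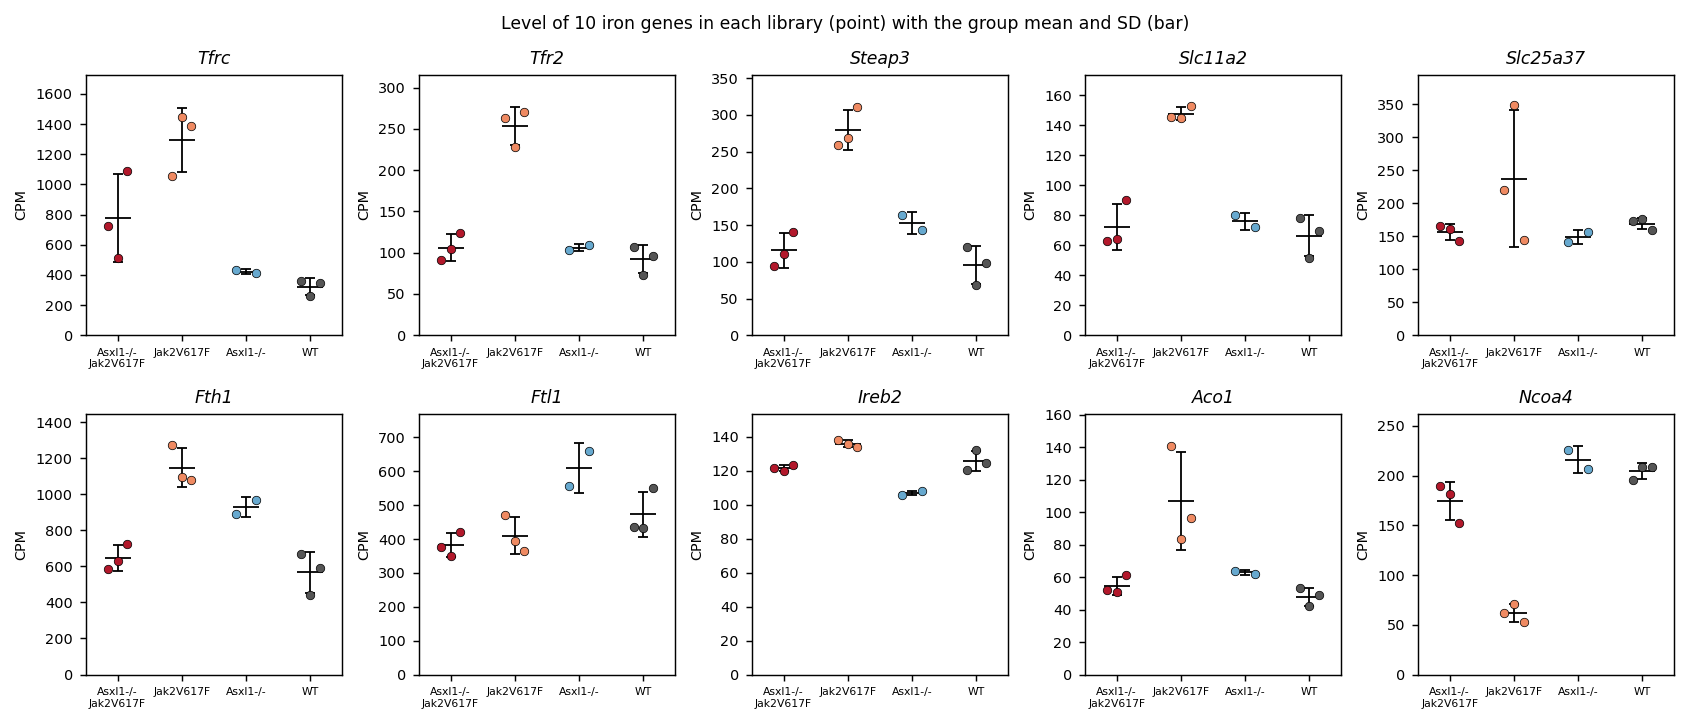
CPM (y axis, linear from 0) of the 10 iron genes in each library, with the 4 genotypes along the x axis; points are libraries and bars the mean and SD (n = 3, 3, 2 and 3). Jak2V617F points lie above all others for Tfr2, Steap3, Slc11a2, Fth1, Aco1 and, narrowly, Ireb2, and below all others for Ncoa4 at 52.7 to 71.4 CPM.

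Tfrc (ENSMUSG00000022797, mm10 chromosome 16, 32608920 to 32632794, + strand), the main entry route for transferrin iron, had 721, 514 and 1090 CPM in Asxl1-/-Jak2V617F, 1054, 1448 and 1387 in Jak2V617F, 434 and 410.1 in Asxl1-/-, and 361, 259 and 348 in WT. Every Asxl1-/-Jak2V617F and Jak2V617F library was above every Asxl1-/- and WT library, and Asxl1-/-Jak2V617F 3 reached into the Jak2V617F range. By edgeR's quasi-likelihood test with Benjamini-Hochberg adjustment over all genes, Tfrc fell by 0.74 ± 0.25 on the log2 scale (SE, adjusted p = 0.0329) in Asxl1-/-Jak2V617F against Jak2V617F. It rose by 2.01 ± 0.25 (adjusted p = 0.000107) in Jak2V617F against WT. The fall in Asxl1-/-Jak2V617F did not pass without Asxl1-/-Jak2V617F 1 (adjusted p = 0.099), Asxl1-/-Jak2V617F 2 (0.0691), Jak2V617F 2 (0.0852) or Jak2V617F 3 (0.0789), with the compared groups fitted alone (0.0676), with no filter on low counts (0.129), with a sex term, a factor for libraries with Y-linked reads (0.0939), or in the libraries without such reads alone (0.112).

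Tfr2 (ENSMUSG00000029716, chromosome 5, 137569840 to 137587481, + strand), another transferrin receptor, is known in erythroid cells to associate with the erythropoietin receptor. It had 91.3, 104 and 123 CPM in Asxl1-/-Jak2V617F, 263, 228 and 271 in Jak2V617F, 103 and 109 in Asxl1-/-, and 107, 73.4 and 95.8 in WT. All 3 Jak2V617F libraries were above every other library, and the Asxl1-/-Jak2V617F libraries overlapped with those of Asxl1-/- and WT. It fell by 1.26 ± 0.14 (adjusted p = 3.4e-05) in Asxl1-/-Jak2V617F against Jak2V617F and rose by 1.46 ± 0.14 (adjusted p = 9.24e-06) in Jak2V617F against WT, the smallest adjusted p of the 4 uptake genes in both comparisons.

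Steap3 (ENSMUSG00000026389, chromosome 1, 120190757 to 120272705, - strand), the reductase of the transferrin cycle, had 94.9, 110.4 and 141 CPM in Asxl1-/-Jak2V617F, 259, 269 and 310.5 in Jak2V617F, 164 and 143 in Asxl1-/-, and 119.7, 68.2 and 98.5 in WT. It fell by 1.28 ± 0.20 (adjusted p = 0.000522) in Asxl1-/-Jak2V617F against Jak2V617F and rose by 1.55 ± 0.20 (adjusted p = 0.000112) in Jak2V617F against WT. Slc11a2 (ENSMUSG00000023030, chromosome 15, 100387898 to 100425072, - strand), which moves ferrous iron out of the endosome, had 62.6, 64.4 and 90.2 CPM in Asxl1-/-Jak2V617F, 145, 145 and 153 in Jak2V617F, 80.05 and 72.1 in Asxl1-/-, and 78.05, 51.6 and 69.6 in WT. The Jak2V617F libraries were the highest for both genes and did not overlap with any other group. Slc11a2 fell by 1.03 ± 0.16 (adjusted p = 0.000417) in Asxl1-/-Jak2V617F against Jak2V617F and rose by 1.15 ± 0.16 (adjusted p = 0.000139) in Jak2V617F against WT.

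**Figure D2:**
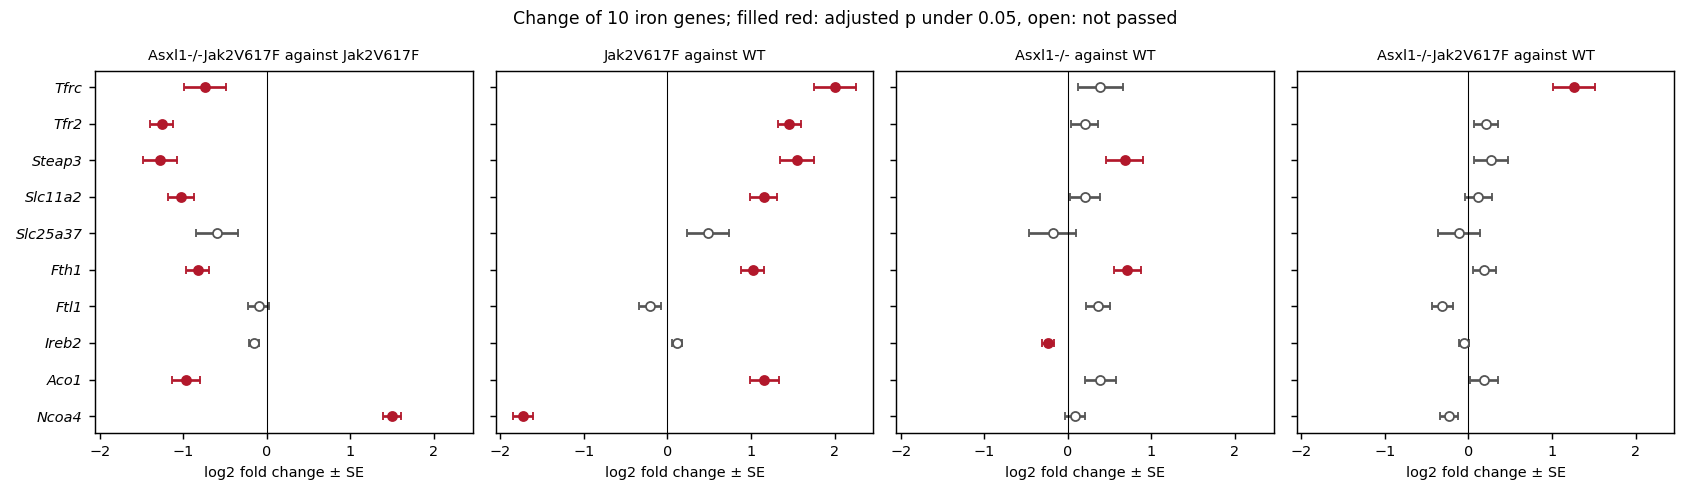
Log2 fold change (x axis; points, with the SE as bars) of the 10 iron genes (y axis) in 4 comparisons; filled red points passed at an adjusted p under 0.05. Asxl1-/-Jak2V617F against Jak2V617F has 6 red points below 0 and Ncoa4 above it at 1.50, Jak2V617F against WT has 6 above 0 and Ncoa4 below it at -1.73, and Tfrc alone is red in Asxl1-/-Jak2V617F against WT, at 1.26.

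Slc25a37 (ENSMUSG00000034248, chromosome 14, 69241848 to 69285112, - strand), the mitochondrial importer of erythroid cells, passed in neither comparison. It had 166, 161 and 142 CPM in Asxl1-/-Jak2V617F, 219.5, 348 and 144 in Jak2V617F, 141 and 157 in Asxl1-/-, and 172, 175 and 159.9 in WT. The Jak2V617F libraries alone were far apart, with a coefficient of variation of 43.6%, against 4.85 to 8.02% in the other groups. The log2 difference was -0.60 ± 0.25 (95% interval -1.17 to -0.04, adjusted p = 0.0794) in Asxl1-/-Jak2V617F against Jak2V617F and 0.49 ± 0.25 (-0.08 to 1.05, adjusted p = 0.13) in Jak2V617F against WT. Without Jak2V617F 3 both passed, at -0.87 (adjusted p = 0.00182) and 0.76 (adjusted p = 0.00299), as both did with DESeq2 (adjusted p = 0.019 and 0.0422). The haemoglobin genes had the same order in the Jak2V617F libraries, with 516, 1035 and 133 CPM, and their part in this spread was not tested. The related carrier Slc25a28 (mitoferrin 2) fell by 0.49 ± 0.13 (adjusted p = 0.00617) in Jak2V617F against WT and did not pass in Asxl1-/-Jak2V617F against Jak2V617F (0.30 ± 0.13, adjusted p = 0.0701).

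Of the ferritin chains, Fth1 passed in both of these comparisons and Ftl1 in neither. Fth1 (ENSMUSG00000024661, chromosome 19, 9982703 to 9985092, + strand), the ferroxidase chain, had 584, 631 and 726 CPM in Asxl1-/-Jak2V617F, 1273, 1093 and 1079 in Jak2V617F, 891 and 968 in Asxl1-/-, and 667, 442 and 591 in WT. Asxl1-/- lay between Jak2V617F and the other groups without overlap. Fth1 fell by 0.83 ± 0.14 (adjusted p = 0.000659) in Asxl1-/-Jak2V617F against Jak2V617F and rose by 1.02 ± 0.14 (adjusted p = 0.000112) in Jak2V617F against WT. Ftl1 (ENSMUSG00000050708, chromosome 7, 45457944 to 45459884, - strand), the light chain, had 377, 349 and 419 CPM in Asxl1-/-Jak2V617F, 471, 393 and 364 in Jak2V617F, 556 and 661 in Asxl1-/-, and 435, 434 and 550 in WT. Here the Asxl1-/- libraries were the highest, and the Jak2V617F libraries overlapped with both Asxl1-/-Jak2V617F and WT. The summed markers of iron-recycling macrophages reached their highest values in Asxl1-/-, which overlapped with WT, at 248 to 294 CPM in Asxl1-/-Jak2V617F, 171 to 383 in Jak2V617F, 1502 to 2382 in Asxl1-/- and 829 to 1608 in WT, and their part in the Ftl1 levels was not tested. Ftl1 differed by -0.10 ± 0.13 (95% interval -0.38 to 0.18, adjusted p = 0.554) in Asxl1-/-Jak2V617F against Jak2V617F and by -0.21 ± 0.13 (-0.49 to 0.07, adjusted p = 0.196) in Jak2V617F against WT. How reads shared with ferritin pseudogenes were counted is not given in the sources used here. The named copy Ftl1-ps1 held 114 to 235 counts per library, 1.85% of those of Ftl1, and adding it changed no call of Ftl1.

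Per kilobase of gene length, Fth1 was the most abundant of the 10 genes in every group, at 747 ± 83.7 CPM per kb in Asxl1-/-Jak2V617F, 1326 ± 125 in Jak2V617F, 1073 ± 63.2 in Asxl1-/- and 654 ± 132 in WT, above at least 99.8% of the genes tested. Ftl1 came next, at 285 ± 26.4 CPM per kb in Asxl1-/-Jak2V617F, 306 ± 41.3 in Jak2V617F, 454 ± 55.2 in Asxl1-/- and 353 ± 49.8 in WT. Tfrc followed at 125 ± 47.2 CPM per kb in Asxl1-/-Jak2V617F, 209.6 ± 34.3 in Jak2V617F, 68.2 ± 2.67 in Asxl1-/- and 52.2 ± 9.04 in WT. The ratio of Fth1 to Ftl1 per kb was 2.4, 2.8 and 2.68 in Asxl1-/-Jak2V617F, 4.18, 4.3 and 4.58 in Jak2V617F, 2.48 and 2.27 in Asxl1-/-, and 2.37, 1.58 and 1.66 in WT. All 3 Jak2V617F libraries thus held more heavy chain mRNA per light chain mRNA than any other library. The log2 ratio differed by -0.73 in Asxl1-/-Jak2V617F against Jak2V617F and by 1.24 in Jak2V617F against WT. In each case the exact permutation test (2-sided) gave p = 0.1, the smallest this test can give with 3 against 3 (0.164 adjusted over 18 comparisons of ratios). No other test of the ratios was run.

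**Figure D3:**
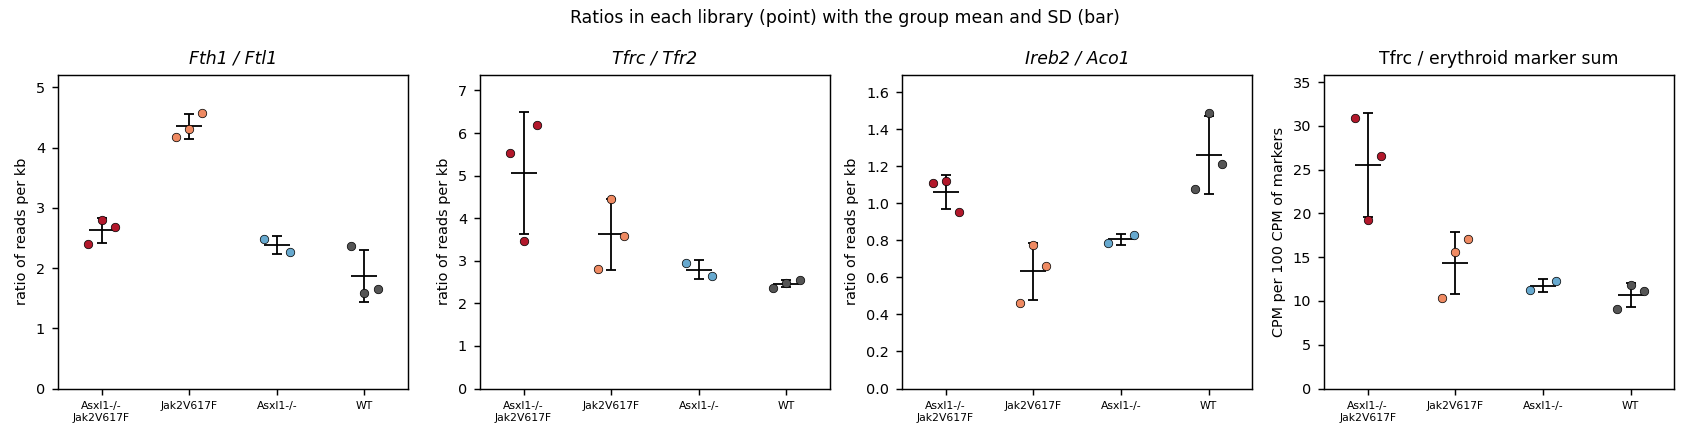
Ratios in each library (points) with the group mean and SD (bars) for the 4 genotypes (x axis); the first 3 panels are ratios of reads per kb and the last is Tfrc in CPM per 100 CPM of summed erythroid markers, all on linear axes from 0. Fth1 per Ftl1 is 4.18 to 4.58 in Jak2V617F and 1.58 to 2.8 in the others, and Tfrc per erythroid marker is highest in Asxl1-/-Jak2V617F, at 19.2 to 30.9.

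Ncoa4 (ENSMUSG00000056234, chromosome 14, 32159865 to 32179855, + strand), the cargo receptor that sends ferritin to the lysosome, went opposite to the uptake genes and to Fth1. It had 189, 182 and 153 CPM in Asxl1-/-Jak2V617F, 61.4, 71.4 and 52.7 in Jak2V617F, 226 and 206 in Asxl1-/-, and 196, 209 and 209 in WT. Every Jak2V617F library lay far below every other library. It rose by 1.50 ± 0.11 (adjusted p = 1.75e-06) in Asxl1-/-Jak2V617F against Jak2V617F and fell by 1.73 ± 0.12 (adjusted p = 6.26e-07) in Jak2V617F against WT, the smallest adjusted p of the 10 genes in both. The granulocyte marker sum went the same way as Ncoa4, and its part in the result was not tested.

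Of the sensors, Aco1 passed in both of these comparisons and Ireb2 in neither. Aco1 (ENSMUSG00000028405, chromosome 4, 40143081 to 40198338, + strand) is a cytosolic aconitase that becomes the RNA-binding protein IRP1 when it loses its iron-sulfur cluster. It had 52.3, 51 and 61.2 CPM in Asxl1-/-Jak2V617F, 141, 83.5 and 96.6 in Jak2V617F, 64 and 61.8 in Asxl1-/-, and 53.2, 42.2 and 48.8 in WT. The Jak2V617F libraries were spread widely and were all above the other libraries. It fell by 0.97 ± 0.17 (adjusted p = 0.000928) in Asxl1-/-Jak2V617F against Jak2V617F and rose by 1.16 ± 0.17 (adjusted p = 0.000202) in Jak2V617F against WT. Ireb2 (ENSMUSG00000032293, chromosome 9, 54863789 to 54912530, + strand) encodes IRP2, which is controlled mainly by degradation of the protein. It had 122, 120.1 and 123 CPM in Asxl1-/-Jak2V617F, 138, 136 and 134 in Jak2V617F, 106 and 108 in Asxl1-/-, and 121, 132 and 125 in WT. Its range over all 11 libraries was the narrowest of the 10 genes relative to its level, and the Jak2V617F libraries were the highest. The log2 differences, -0.16 ± 0.06 (95% interval -0.30 to -0.02, adjusted p = 0.0554) in Asxl1-/-Jak2V617F against Jak2V617F and 0.11 ± 0.06 (-0.03 to 0.25, adjusted p = 0.154) in Jak2V617F against WT, did not pass. With DESeq2 both did (adjusted p = 0.0114 and 0.0282), and likewise with median-of-ratios scaling (0.0286 and 0.0473). Fbxl5, which targets the IRP2 protein for degradation, rose by 0.56 ± 0.16 (adjusted p = 0.0132) in Asxl1-/-Jak2V617F against Jak2V617F and fell by 0.52 ± 0.16 (adjusted p = 0.0153) in Jak2V617F against WT.

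The ratio of Ireb2 to Aco1 per kb was 1.11, 1.12 and 0.955 in Asxl1-/-Jak2V617F, 0.464, 0.773 and 0.659 in Jak2V617F, 0.786 and 0.828 in Asxl1-/-, and 1.08, 1.49 and 1.21 in WT. All Jak2V617F libraries were below all others. The log2 ratio differed by 0.78 in Asxl1-/-Jak2V617F against Jak2V617F and by -1.01 in Jak2V617F against WT, each with p = 0.1 by the exact permutation test, the smallest it can give (0.164 adjusted). The ratio of Tfrc to Tfr2 was 5.54, 3.46 and 6.2 in Asxl1-/-Jak2V617F, 2.81, 4.46 and 3.59 in Jak2V617F, 2.95 and 2.64 in Asxl1-/-, and 2.37, 2.47 and 2.55 in WT. It was above every WT value in all libraries of the other 3 groups, and Asxl1-/-Jak2V617F overlapped with Jak2V617F.

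In Asxl1-/-Jak2V617F against WT, Tfrc was the 1 gene of the 10 that passed, where 15.1% of all genes were called, 8.3% higher and 6.76% lower. It rose by 1.26 ± 0.25 (adjusted p = 0.0142), with all 3 Asxl1-/-Jak2V617F libraries (514 to 1090 CPM) above all 3 WT libraries (259 to 361 CPM). Without WT 2, its lowest library, the call was lost (adjusted p = 0.0614). The other uptake genes did not pass. On the log2 scale Tfr2 differed by 0.21 (95% interval -0.10 to 0.52), Steap3 by 0.27 (-0.17 to 0.71) and Slc11a2 by 0.12 (-0.23 to 0.48). Fth1 differed by 0.19 (-0.12 to 0.50), Aco1 by 0.19 (-0.19 to 0.57) and Ncoa4 by -0.23 (-0.47 to 0.01). None of the 20 erythroid markers passed in this comparison by edgeR's test, with 0 at an unadjusted p under 0.05 and 0 with DESeq2. None of the 14 granulocyte markers passed by edgeR's test either, but 7 had an unadjusted p under 0.05 and DESeq2 called 4, with 3 higher and 1 lower. Of the markers of iron-recycling macrophages, 10 of 12 fell (248 to 294 CPM summed in Asxl1-/-Jak2V617F, 829 to 1608 in WT), and their part in the Tfrc result was not tested.

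Tfrc was also set against the summed erythroid markers, a ratio chosen after its values were seen and given as a description with no test. It had 30.9, 19.2 and 26.6 CPM per 100 CPM of erythroid markers in Asxl1-/-Jak2V617F, 10.3, 15.6 and 17.1 in Jak2V617F, 11.2 and 12.3 in Asxl1-/-, and 9.1, 11.8 and 11.1 in WT. All 3 Asxl1-/-Jak2V617F libraries were above all other libraries, while Jak2V617F overlapped with WT. The log2 ratio differed by 0.84 in Asxl1-/-Jak2V617F against Jak2V617F and by 1.24 in Asxl1-/-Jak2V617F against WT, and by 0.40 in Jak2V617F against WT. The position above Jak2V617F was not particular to Tfrc. Slc11a2 (log2 0.59), Aco1 (0.70), Fth1 (0.81), Ireb2 (1.48), Ftl1 (1.54) and Ncoa4 (3.14) were also higher there without overlap. Tfr2, Steap3 and Slc25a37 overlapped. Against WT, Steap3 (0.32) was the only other gene higher in Asxl1-/-Jak2V617F without overlap. For Tfr2 the same ratio was 3.6 ± 0.513 in Asxl1-/-Jak2V617F, 2.79 ± 0.485 in Jak2V617F, 2.96 ± 0.423 in Asxl1-/- and 3.03 ± 0.324 in WT, and each of the 6 pairs of groups overlapped. Fth1 per 100 CPM of erythroid markers was 22.1 ± 3.85 in Asxl1-/-Jak2V617F, 12.5 ± 0.77 in Jak2V617F, 26 ± 4.23 in Asxl1-/- and 18.6 ± 1.67 in WT, so that Jak2V617F, the highest group in CPM, was the lowest in this ratio. Within a group, the libraries had the order of their erythroid sums for 4 of the 10 genes in Asxl1-/-Jak2V617F (Tfr2, Steap3, Slc11a2 and Fth1) and for 3 in Jak2V617F (Fth1, Ftl1 and Ireb2, with none of the uptake genes). They had it for 5 in Asxl1-/- (Tfrc, Steap3, Slc11a2, Aco1 and Ncoa4), where 2 libraries have only 2 possible orders, and for 6 in WT (Tfrc, Tfr2, Steap3, Slc11a2, Fth1 and Aco1). The share of all genes with these orders was not computed, so the counts are a description only. The part of erythroid cell content in the changes of the uptake genes was not tested.

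**Figure D4:**
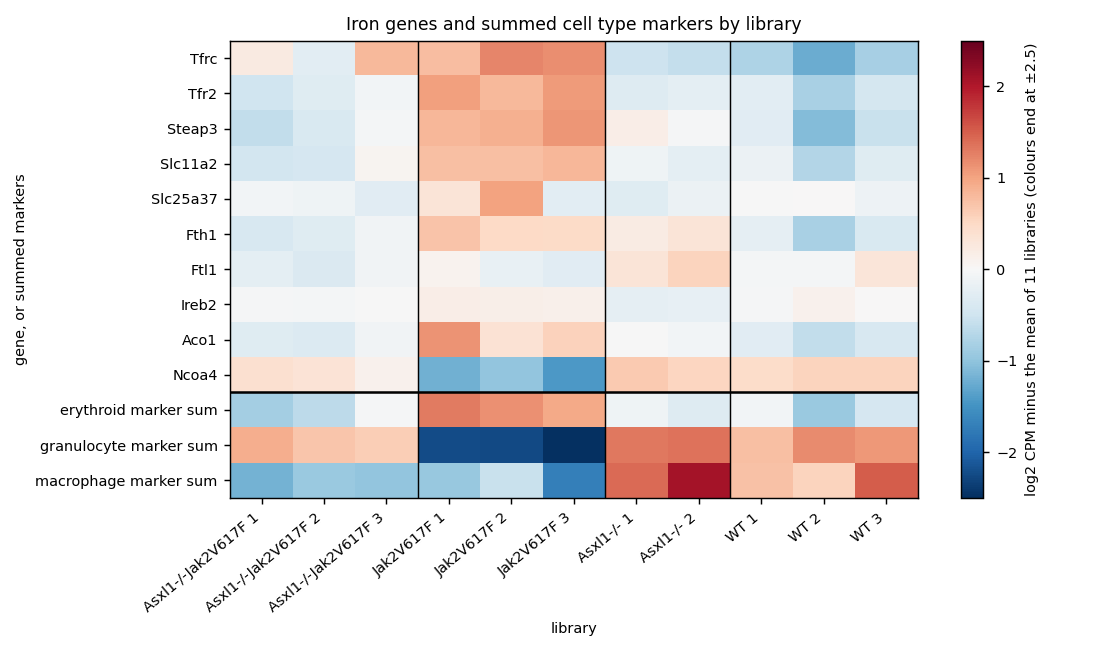
Log2 CPM of the 10 iron genes (rows above the line) and of summed erythroid, granulocyte and macrophage markers (rows below it) in each of the 11 libraries (columns, by genotype), each row minus its mean over the libraries; red is higher, blue lower, and colours end at 2.5 on either side. The Jak2V617F columns are red for the uptake genes, Fth1, Aco1 and the erythroid sum, and blue for Ncoa4 and the granulocyte sum.

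With loss of Asxl1 on a WT background, 3 of the 10 genes passed. In Asxl1-/- against WT, Steap3 rose by 0.68 ± 0.22 (adjusted p = 0.0481), Fth1 rose by 0.71 ± 0.16 (adjusted p = 0.0101) and Ireb2 fell by 0.24 ± 0.07 (adjusted p = 0.0343), where 22.5% of all genes were called, 11.3% higher and 11.2% lower. Ftl1 was above all WT libraries in both Asxl1-/- libraries but did not pass (0.36 ± 0.14, adjusted p = 0.0864). Tfrc differed by 0.39 ± 0.27 (95% interval -0.22 to 0.99) and Ncoa4 by 0.08 ± 0.12 (-0.19 to 0.35). Without Asxl1-/- 1 none of the 10 genes passed, and likewise without Asxl1-/- 2. Fth1 was the 1 gene that passed without Asxl1-/-Jak2V617F 2, Jak2V617F 2 or WT 2, or with no filter on low counts. Over all genes, 3664 were called in this comparison, against 288 without Asxl1-/- 1, 1407 without Asxl1-/- 2 and 502 with a sex term. With a sex term Steap3, Fth1 and Ireb2 did not pass (adjusted p = 0.112 for Fth1), and Slc25a37 did, at -1.12 (adjusted p = 0.0447). Slc25a37 levels were 141 and 157 CPM in Asxl1-/- and 159.9 to 175 in WT. That fit separates sex from Asxl1 genotype only through Jak2V617F 2. There Slc25a37 was at 348 CPM, against 219.5 and 144 in the other Jak2V617F libraries. In Asxl1-/-Jak2V617F against Asxl1-/-, where 5.53% of all genes were called (3.31% higher, 2.22% lower), Ftl1 fell by 0.67 ± 0.14 (adjusted p = 0.0211) and no other of the 10 genes passed. In the same comparison 10 of the 12 macrophage markers fell, and their part in the Ftl1 result was not tested. Tfrc differed by 0.88 ± 0.28 (95% interval 0.25 to 1.51, adjusted p = 0.106) and Fth1 by -0.52 ± 0.16 (-0.87 to -0.18, adjusted p = 0.079). The Ftl1 call was lost with a sex term (adjusted p = 0.265) and without Asxl1-/-Jak2V617F 1 (0.0587), Asxl1-/-Jak2V617F 2 (0.0749), Asxl1-/- 1 (0.0662) or Asxl1-/- 2 (0.211). Without Asxl1-/-Jak2V617F 2, Tfrc passed in its place, higher by 1.11 (adjusted p = 0.0377). With DESeq2, Tfrc (adjusted p = 0.0112) and Fth1 (0.0344) passed as well, and Fth1 passed without WT 1 (0.0464) or WT 2 (0.0347).

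In Jak2V617F against Asxl1-/-, where 48.2% of all genes were called (22.3% higher, 25.9% lower), 8 of the 10 genes passed. The 4 uptake genes rose, Steap3 least (0.87 ± 0.22, adjusted p = 0.00952) and Tfrc most (1.62 ± 0.29, adjusted p = 0.00127), as did Aco1 (0.77 ± 0.19, adjusted p = 0.00736) and Ireb2 (0.35 ± 0.07, adjusted p = 0.00186). Ncoa4 fell by 1.80 ± 0.12 (adjusted p = 9.08e-07) and Ftl1 fell by 0.57 ± 0.14 (adjusted p = 0.00622), in a comparison where 11 of the 12 macrophage markers fell. Fth1 did not pass (0.30 ± 0.16, 95% interval -0.05 to 0.66). Without Asxl1-/- 2 the count was 5, since Steap3 (adjusted p = 0.0805), Aco1 (0.0547) and Ftl1 (0.0824) did not pass. Steap3 (0.0683) and Aco1 (0.153) did not pass with a sex term either.

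The effect of Asxl1 loss differed between the Jak2V617F and the WT background for 7 of the 10 genes by the interaction term, where 41.6% of all genes were called, 23.7% with a positive and 17.9% with a negative term. Over all genes 6764 were called, against 3079 with a sex term, where 5 of the 10 genes passed. The difference of the effects was -1.96 ± 0.29 on the log2 scale for Steap3 (adjusted p = 0.000719), -1.54 ± 0.21 for Fth1 (adjusted p = 0.000285), -1.46 ± 0.21 for Tfr2 (adjusted p = 0.000397), -1.35 ± 0.25 for Aco1 (adjusted p = 0.00198) and -1.23 ± 0.24 for Slc11a2 (adjusted p = 0.00252). Ncoa4 had the opposite sign, 1.42 ± 0.17 (adjusted p = 0.000119). Fth1 and Steap3 passed with opposite directions on these backgrounds, lower with Asxl1 loss in Jak2V617F and higher in WT. The rise in WT did not pass for either gene with a sex term, without Asxl1-/- 1 or without Asxl1-/- 2. Nor did it for Steap3 with no filter on low counts. Of 18 alternatives in Asxl1-/- against WT, 11 lost the call for Steap3 and 3 for Fth1. Tfrc, at -1.13 ± 0.37 (adjusted p = 0.0324), did not pass with a sex term (adjusted p = 0.404) or with no filter (0.123). Nor did it without Asxl1-/-Jak2V617F 1, Jak2V617F 2, Jak2V617F 3, Asxl1-/- 1, Asxl1-/- 2 or WT 2 (adjusted p from 0.0545 to 0.0963). Slc11a2 did not pass with a sex term (adjusted p = 0.0587). Slc25a37, Ftl1 and Ireb2 did not pass.

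Among the 10 genes, the closest profiles over the 11 libraries were those of Tfr2 and Slc11a2, with a root mean square difference of 0.15 in centred log2 CPM, then Tfr2 and Steap3 and also Fth1 and Aco1, both at 0.20. The farthest pair was Tfrc and Ncoa4, at 1.53. Of all other protein-coding genes tested, Jcad (0.33) and Gja1 (0.34) were nearest to Tfrc, where the median gene was at 0.91. Purg, Bpgm and Mosmo were nearest to Slc25a37 (each 0.21, median 0.50). Slc7a7 (0.13), Shld1 (0.13) and Scand1 (0.14) were nearest to Ftl1 (median 0.45), and Decr1 (0.13), Wdsub1 (0.14) and Tns1 (0.14) to Aco1 (median 0.60). All these profiles come from the same 11 libraries.

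The stretches before the start sites of genes that moved in opposite directions are shown so that their letters can be compared: Tfrc and Tfr2 for uptake, Fth1 for storage and Ncoa4 for release. Each is the 250 bases before a RefSeq start (GRCm38.p6), 5′ to 3′ on the strand of the gene. RefSeq lists 2 such windows for Tfrc, 3 for Tfr2, 2 for Fth1 and 3 for Ncoa4, and the one nearest to the gene start in the count table was used. Capitals mark CCNCNCCC, the CACCC-type motif of Krüppel-like factors, on either strand.
Tfrc (chr16:32608646-32608895, + strand): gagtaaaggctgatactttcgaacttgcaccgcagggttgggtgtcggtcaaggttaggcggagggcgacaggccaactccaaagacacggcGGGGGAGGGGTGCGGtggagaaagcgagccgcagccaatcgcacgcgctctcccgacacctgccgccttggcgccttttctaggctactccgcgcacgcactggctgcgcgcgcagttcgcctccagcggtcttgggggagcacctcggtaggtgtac
Tfr2 (chr5:137569590-137569839, + strand): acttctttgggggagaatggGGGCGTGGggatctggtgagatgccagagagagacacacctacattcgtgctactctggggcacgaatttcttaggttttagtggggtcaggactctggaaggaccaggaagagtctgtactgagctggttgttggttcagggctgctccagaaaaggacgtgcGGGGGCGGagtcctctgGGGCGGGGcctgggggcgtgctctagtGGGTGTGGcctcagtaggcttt
Fth1 (chr19:9982396-9982645, + strand): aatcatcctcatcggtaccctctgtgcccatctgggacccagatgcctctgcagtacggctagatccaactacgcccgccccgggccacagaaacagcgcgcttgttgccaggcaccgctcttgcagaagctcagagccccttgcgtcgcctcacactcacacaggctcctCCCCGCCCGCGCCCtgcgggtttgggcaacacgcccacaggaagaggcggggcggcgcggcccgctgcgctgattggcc
Ncoa4 (chr14:32159637-32159886, + strand): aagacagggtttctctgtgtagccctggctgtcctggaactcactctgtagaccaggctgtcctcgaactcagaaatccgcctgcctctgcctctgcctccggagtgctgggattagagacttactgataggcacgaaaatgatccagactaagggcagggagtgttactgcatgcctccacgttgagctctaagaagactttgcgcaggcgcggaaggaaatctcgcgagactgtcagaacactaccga

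Windows were found for 8 of the 10 genes, all but Slc11a2 and Slc25a37, and 1 per gene was searched. CCNCNCCC was found in 7 of the 8, with 3 places for Tfrc, 4 for Tfr2, 2 for Fth1 and 0 for Ncoa4, and in 45.9% of 32851 windows of the same length. Overlapping places were counted separately. The GATA motif AGATAA was found in 1 of the 8, Steap3, and in 9.99% of all windows. The E-box CACGTG (6.02% of all windows), the STAT motif TTCNNNGAA (7.02%) and the AP-1 and NF-E2 type motif TGACTCA (4.46%) were in none of the 8. Both strands were searched, and a match describes letters in this window, not a bound site.

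Other genes of iron handling are given by list, and the counts of each list are to be read against the shares of all genes tested. These were 24.5% higher and 19.8% lower in Asxl1-/-Jak2V617F against Jak2V617F. In Jak2V617F against WT they were 24.4% higher and 29.2% lower. Around the transferrin cycle, 13 of 16 genes were tested. In Asxl1-/-Jak2V617F against Jak2V617F, 2 rose and 3 fell, and in Jak2V617F against WT 4 rose and 4 fell. Slc39a8 (ZIP8), a metal importer that carries zinc and iron, fell by 0.97 ± 0.13 (adjusted p = 9.15e-05) in Asxl1-/-Jak2V617F against Jak2V617F and rose by 1.63 ± 0.13 (adjusted p = 1.93e-06) in Jak2V617F against WT. Picalm, a clathrin adaptor that takes part in uptake of the transferrin receptor, fell by 0.79 ± 0.11 and rose by 0.81 ± 0.11 in the same comparisons. Snx3, a sorting nexin that recycles the receptor, rose by 0.63 ± 0.10 in Jak2V617F against WT and by 0.67 ± 0.11 in Asxl1-/- against WT. Steap4, another metalloreductase of the Steap family, rose by 2.26 ± 0.44 (adjusted p = 0.00138) in Asxl1-/-Jak2V617F against Jak2V617F, where its level was low (4.43 ± 2.05 CPM for Asxl1-/-Jak2V617F and 0.921 ± 0.476 for Jak2V617F). Steap1, Steap2 and the mitochondrial ferritin Ftmt did not pass the filter on low counts. Transferrin itself (Trf), at 0.766 ± 0.404 CPM in Jak2V617F and 6.98 ± 3.13 CPM in WT, fell by 3.17 ± 0.59 (adjusted p = 0.000932) in Jak2V617F against WT.

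Of 8 genes of iron export and systemic control, 3 were counted well enough to test. Erfe, the erythroferrone hormone by which erythroblasts restrain hepcidin, was at 7.9 ± 1.99 CPM in Asxl1-/-Jak2V617F, 27.1 ± 9.84 in Jak2V617F, 3.26 ± 0.751 in Asxl1-/- and 1.73 ± 0.284 in WT. It fell by 1.78 ± 0.27 (adjusted p = 0.000259) in Asxl1-/-Jak2V617F against Jak2V617F and rose by 3.97 ± 0.31 (adjusted p = 1.55e-06) in Jak2V617F against WT. Like Tfrc it was also above WT in Asxl1-/-Jak2V617F, by 2.19 ± 0.30 (adjusted p = 0.00471). The iron exporter ferroportin (Slc40a1) fell by 1.06 ± 0.18 (adjusted p = 0.000542) in Jak2V617F against WT and by 0.93 ± 0.18 (adjusted p = 0.0123) in Asxl1-/-Jak2V617F against WT. It belongs to the macrophage markers, whose sum was 248 to 294 CPM in Asxl1-/-Jak2V617F, 171 to 383 in Jak2V617F and 829 to 1608 in WT. Slc40a1 itself is counted in that sum, at 112 to 146 CPM in Asxl1-/-Jak2V617F, 111 to 127 in Jak2V617F and 206 to 308 in WT. The part of those cells was not tested. Among 6 tested chaperones and regulators of sensor turnover, Pcbp1, which hands iron to ferritin, rose by 0.56 ± 0.13 (adjusted p = 0.00298) in Jak2V617F against WT, in a list with 3 rising and 1 falling. Pcbp1 also rose in Asxl1-/- against WT, by 0.73 ± 0.14 (adjusted p = 0.00594). Its rise in Asxl1-/-Jak2V617F against WT was 0.50 ± 0.13 (adjusted p = 0.0264). In Asxl1-/-Jak2V617F against Jak2V617F, Fbxl5 alone of the 6 passed.

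Genes that use mitochondrial iron were mostly lower in Asxl1-/-Jak2V617F than in Jak2V617F, and mostly higher in Jak2V617F than in WT. Of 18 genes of mitochondrial iron use and iron-sulfur assembly, 1 rose and 10 fell in Asxl1-/-Jak2V617F against Jak2V617F (median log2 -0.48), and 12 rose and 1 fell in Jak2V617F against WT (median 0.60). Iba57 and Lyrm4, both of iron-sulfur assembly, fell by 1.20 ± 0.19 (adjusted p = 0.000348) and by 0.96 ± 0.15 (adjusted p = 0.00034) in Asxl1-/-Jak2V617F against Jak2V617F, and Glrx5, which passes clusters on, rose by 1.22 ± 0.16 (adjusted p = 7.61e-05) in Jak2V617F against WT. Of 9 genes of haem synthesis, 1 rose and 8 fell in Asxl1-/-Jak2V617F against Jak2V617F (median -1.26), and 7 rose and 1 fell in Jak2V617F against WT (median 1.31). The gene that went the other way in each was Alas1, the first enzyme of the pathway in non-erythroid cells, with 517 ± 154 CPM in Asxl1-/-Jak2V617F, 63.6 ± 6.09 in Jak2V617F, 451 ± 37.6 in Asxl1-/- and 399 ± 39.1 in WT. It rose by 3.02 ± 0.19 (adjusted p = 8.48e-07) in Asxl1-/-Jak2V617F against Jak2V617F and fell by 2.65 ± 0.19 (adjusted p = 1.47e-06) in Jak2V617F against WT. Alas2, its erythroid counterpart, fell by 2.44 ± 0.59 (adjusted p = 0.00869) in Asxl1-/-Jak2V617F against Jak2V617F and rose by 3.14 ± 0.61 (adjusted p = 0.00211) in Jak2V617F against WT. The erythroid marker sum went the same way as these lists, and its part was not tested.

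**Figure D5:**
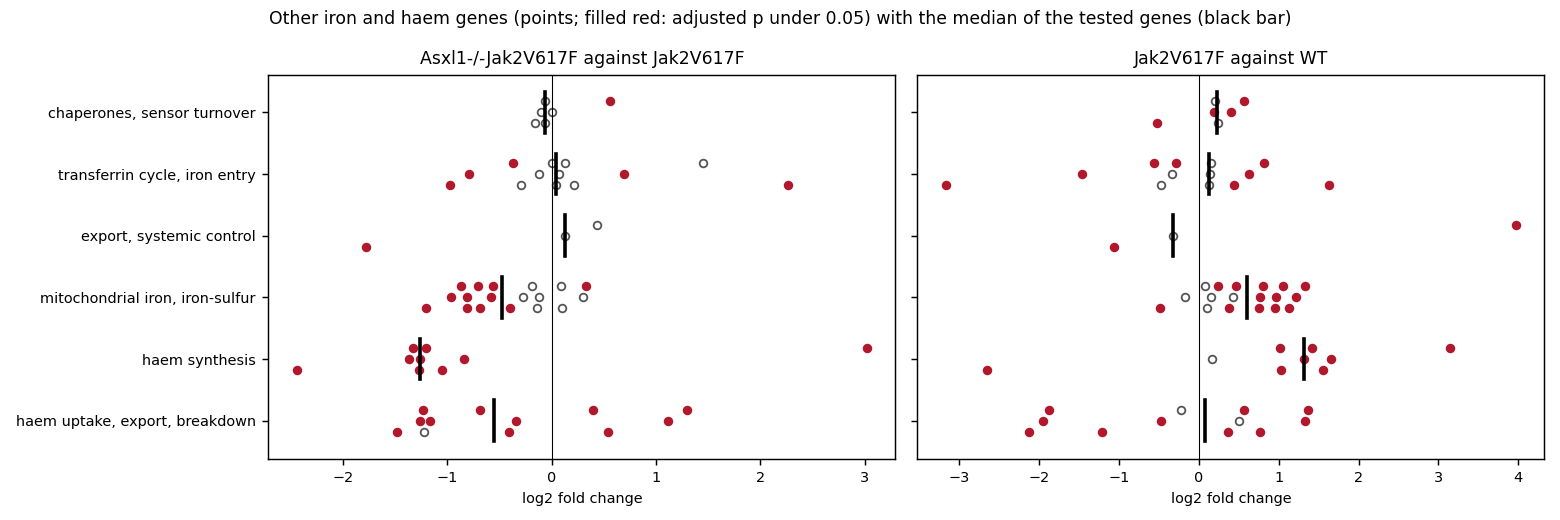
Log2 fold change (x axis) of other iron and haem genes (points) by list (y axis) in Asxl1-/-Jak2V617F against Jak2V617F (left) and Jak2V617F against WT (right); filled red points passed at an adjusted p under 0.05 and black bars are the medians of the genes tested. The haem synthesis medians are -1.26 (left) and 1.31 (right), with Alas1 alone on the other side at 3.02 and -2.65.

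Haem uptake, export and breakdown was mixed, with 4 of 12 tested genes rising and 7 falling in Asxl1-/-Jak2V617F against Jak2V617F, and 5 rising and 5 falling in Jak2V617F against WT. Abcg2, an exporter of porphyrins among other substrates, fell by 1.17 ± 0.17 (adjusted p = 0.00025) in Asxl1-/-Jak2V617F against Jak2V617F and rose by 1.36 ± 0.17 (adjusted p = 6.51e-05) in Jak2V617F against WT. Of 6 other transcripts with an iron-responsive element, 2 rose and 3 fell in Asxl1-/-Jak2V617F against Jak2V617F, and 3 rose and 3 fell in Jak2V617F against WT. This list includes Alas2 and Slc40a1, and Cdc42bpa and Cdc14a moved in opposite directions (-1.77 ± 0.21 and 0.86 ± 0.13 in Asxl1-/-Jak2V617F against Jak2V617F). In Asxl1-/- against WT, 5 of the 18 mitochondrial genes rose, where 11.3% of all genes tested did. Among them was Iscu (0.56 ± 0.10, adjusted p = 0.00439 by edgeR's test), the scaffold on which clusters are built. None of the 9 haem synthesis genes passed there (edgeR, adjusted p from 0.0828 for Ppox upward), with 1 at an unadjusted p under 0.05 and 0 called by DESeq2. The count of 5 was 0 with a sex term or without Asxl1-/- 1, 2 without Asxl1-/- 2, WT 2 or WT 3, and 8 without WT 1.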

How the data were processed

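The deposited table holds raw read counts per Ensembl gene for 11 RNA-seq libraries, with gene lengths in bases that the authors deposited beside them. The submitters' processing notes list the mm10 build, featureCounts 1.5.0-p3 and HISAT2 2.0.5 among their tools, with no role for any. How strand and multi-mapped reads were handled, and which annotation release was used, is not stated, so a gene with a near-identical copy or an antisense partner has an uncertain count. Chromatin samples were not used here.

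The counts were filtered with filterByExpr by group (16262 of 54532 genes), scaled with TMM factors, then tested in edgeR 4.0.16 (R 4.3.3) by the quasi-likelihood test (robust dispersion, common biological coefficient of variation 19.7%). A single model of genotype held all 11 libraries and gave 7 contrasts. P-values were adjusted by Benjamini-Hochberg across the genes tested and called at 0.05. SEs were derived by dividing each log2 fold change by the root of its F statistic, and intervals are at 95%. Profiles used log2 CPM with a prior count of 2. Replicates of a group differed by more than counting noise, so none was taken for a repeat deposit of another; this does not show that they are separate animals.

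The 10 genes, the 13 lists of other genes and the alternatives were chosen with earlier results of these data known. All 10 genes are named in each main comparison. From each list of other iron and haem genes the text draws on the 3 of smallest adjusted p per comparison, and on relatives of the 10 genes. Genes nearest in profile are the 3 of smallest root mean square difference, of which 1 is not reported here. Alas2 was named after its values were seen. Markers of megakaryocytes summed to 88.1 to 108 CPM in Asxl1-/-Jak2V617F, 45.9 to 48.3 in Jak2V617F, 126 to 128 in Asxl1-/- and 142 to 174 in WT, those of lymphoid cells to 586 to 1190 in Asxl1-/-Jak2V617F, 1102 to 3760 in Jak2V617F, 794 to 1017 in Asxl1-/- and 679.8 to 1096 in WT, and those of progenitors to 828 to 1006 in Asxl1-/-Jak2V617F, 629 to 735 in Jak2V617F, 1004 to 1059 in Asxl1-/- and 949 to 1052 in WT. Alternatives were scaling by median of ratios, DESeq2 1.42.0, no filter and a stricter one (CPM of 1 in 3 libraries), the compared groups alone, a replicate block, a sex term and each library left out. Female libraries alone were added after seeing the data.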

Additional observations from a re-analysis of the deposited data

Results flagged for a closer look

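The effect of Asxl1 loss differed between the Jak2V617F background and the WT background for 7 of the 10 genes, by the interaction term of edgeR's quasi-likelihood test. The difference of the log2 effects was -1.13 for Tfrc, -1.46 for Tfr2, -1.96 for Steap3, -1.23 for Slc11a2, -1.54 for Fth1, -1.35 for Aco1 and 1.42 for Ncoa4. Of all genes tested 41.6% passed this test, 6764 genes against 3079 with a sex term. The erythroid markers passed it in 17 of 20 cases, all with a negative sign, and the granulocyte markers in 12 of 14, all with a positive sign. The part of cell content in these differences was not tested.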

How the results depend on the processing

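The counts of the 10 genes called stayed within 1.5 times of the reported one under every alternative run in Asxl1-/-Jak2V617F against Jak2V617F, Jak2V617F against WT and the interaction, with 6 to 8, 7 to 8 and 6 to 8 when a library was left out. In Asxl1-/- against WT 3 became 1 with no filter and 1 with a sex term, and 0 to 3 without a library. In Asxl1-/-Jak2V617F against Asxl1-/- 1 became 3 with DESeq2 and 0 with a sex term, and 0 to 2 without a library, the 1 without Asxl1-/-Jak2V617F 2 being Tfrc and not Ftl1. The range without a library was 0 to 1 in Asxl1-/-Jak2V617F against WT and 5 to 9 in Jak2V617F against Asxl1-/-. Over 70 combinations of gene and comparison, 1196 of 1287 alternatives kept the call and 91 changed it. Signs turned in 10 cases, none of which passed in either fit: Ftl1 in Asxl1-/-Jak2V617F against Jak2V617F (0.01 without Jak2V617F 1, range over left-out libraries -0.19 to 0.01), Ncoa4 with a sex term in Asxl1-/- against WT (-0.25) and in Asxl1-/-Jak2V617F against Asxl1-/- (0.02), Slc25a37 in the interaction with a sex term (0.91) and in Asxl1-/-Jak2V617F against Asxl1-/- without Asxl1-/- 1 (-0.00 to 0.15 over left-out libraries), and Slc11a2 in Asxl1-/-Jak2V617F against WT (-0.07 without Asxl1-/-Jak2V617F 3, -0.03 without WT 2, range -0.07 to 0.29) and against Asxl1-/- (0.03, 0.01 and 0.00 without Asxl1-/-Jak2V617F 1, Asxl1-/-Jak2V617F 2 and Asxl1-/- 1, range -0.26 to 0.03). The cause was not tested. Deviations from the group means in same-numbered libraries had correlations of -0.199 to 0.174 (15 pairs, 4 over 0.1). Of the 11 libraries, 5 correlated best with a library of their own number. With 2 or 3 libraries a group this cannot show whether the numbers mark a batch. They were taken to name samples only. With the replicate block 7 genes passed in Asxl1-/-Jak2V617F against Jak2V617F, and Tfrc was at -0.80 there. With 2 or 3 libraries a group, the exact permutation test used for ratios of genes cannot pass the threshold. A gene that did not pass may differ by any amount inside its interval.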
